A study of Mus musculus with 4 samples.

Results

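The genes described here are 42 genes of the neuronal cytoskeleton, of neuron-restricted RNA binding and of the synapse, chosen by name for their known place in neurons, and 28250 genes were listed in all. A value was listed for 41 of them, and Celsr3 was followed by its read positions alone. They were measured in TBV2 cells, a mouse embryonic stem cell (ESC) line that grows on feeder cells with LIF, the cytokine that keeps such cells undifferentiated. The cells received either solvent or 5 µM MS-275 (Entinostat), an inhibitor of the class I histone deacetylases (HDACs), for 24 h, and 2 poly(A) RNA-seq libraries were made of each group. The libraries without the word duplicate in their titles are called replicate 1 and the others replicate 2. Nothing states that the replicates came from separate cultures, so that p-values rest only on the spread between these libraries. The tests share this spread across genes, so that a small p-value does not show how close a gene's own replicates lie. All cells belong to 1 line, and how much feeder RNA each library holds is not stated.

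Neurons carry a cytoskeleton of their own, with neurofilaments that fill the axon, microtubule-associated proteins that stiffen it, and stathmins that take tubulin away from growing microtubules. Their synapses store transmitter in vesicles that dock at the active zone and fuse through SNARE proteins once synaptotagmins sense calcium, while granins fill the dense-core granules that carry peptides. Many of these genes are kept silent outside neurons by the repressor REST, which reads a DNA element called RE1 and recruits complexes that contain the class I deacetylases HDAC1 and HDAC2. ESC express REST, and its known target genes include several of those described here.

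The sequences below show RE1-like matches, because the same element lay beside genes that moved in opposite ways. The motif searched was a left arm TCAGCACC, 2 free bases and a right arm GGACAG, read on both strands within 2000 bases of each gene start in mm9 (GENCODE M1). A match with no mismatch over the 14 fixed bases was found at 7 of the 42 genes (16.7%) and at 0.304% of 22072 genes searched in the same way. With up to 1 mismatch these shares were 33.3% (14 genes) and 0.988%, and with up to 2 mismatches 45.2% (19 genes) and 6.4%. REST sites were among the reasons for choosing these genes, so the larger share among them is a description of the choice. Each sequence below is written on the strand of the motif, with the 2 arms in capitals and 3 flanking bases at each end. The first set holds the matches with at most 1 mismatch at genes that rose after MS-275 in both readouts described further on, when compared within replicate numbers. Among them Chgb entered the second readout only through its MS-275 libraries, so that its direction there was fixed beforehand.
Chga, intron, mm9 chr12:103793446-103793467, plus strand: gatTCAGCACCtcGGACAGcac
Chgb, intron, mm9 chr2:132607528-132607549, plus strand: attTCAGCACCccGGACAGctc
Nefh, upstream, mm9 chr11:4849399-4849420, plus strand: gctTCAGCACCacGGACAGcag
Elavl3, upstream, mm9 chr9:21858312-21858333, plus strand: gctTCAGCACCacAGACAGcgg
Nefm, upstream, mm9 chr14:68743779-68743800, plus strand: ccgGCAGCACCaaGGACAGcgc
Syn1, upstream, mm9 chrX:20498257-20498278, minus strand: gatTCAGCACCgcGGTCAGagc
Vgf, upstream, mm9 chr5:137506145-137506166, minus strand: gctTCAGCACGctGGACAGcgc

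The second set holds the matches of the same quality at genes that were not called in the values. In exon positions, Stmn2 and Rundc3a of this set fell and Snap25 rose when compared within replicate numbers, and none of them passed otherwise. Snap25 holds a pair of matches, and Syt4 also has a match without mismatch, in an exon, whose letters are not printed here.
Stmn2, upstream, mm9 chr3:8508228-8508249, plus strand: attTCAGCACCacGGACAGcgc
Ina, intron, mm9 chr19:47091166-47091187, minus strand: agaTCAGCACCtcGGACAGcgc
Snap25, intron, mm9 chr2:136540022-136540043, plus strand: agcTCAGCACCctGGACAGgag
Snap25, intron, mm9 chr2:136540072-136540093, plus strand: cttTCAGCACCgcGGACAGcga
Celsr3, upstream, mm9 chr9:108728247-108728268, plus strand: cgtTCAGCACCgtGGGCAGcac
Rundc3a, exon, mm9 chr11:102254764-102254785, plus strand: ggcTCAGCACCtcGGAGAGctc
Syp, exon, mm9 chrX:7215861-7215882, plus strand: gctCCAGCACCgtGGACAGagc

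Of the 42 genes, 28 had a promoter in the RefSeq table of GRCm38.p6, which gives 250 bases before and 50 after each gene start. Among these, 3 (10.7%) held a match with up to 2 mismatches, against 0.601% of 26794 promoters. Their median G+C content was 61.3%, against 53.0% for all promoters, and the median ratio of observed to expected CpG was 0.70 against 0.39. The promoter of Syn1, which codes for the vesicle phosphoprotein synapsin I, shows the arrangement at a gene that rose. Its 250 bases before the gene start are printed 5′ to 3′ on the gene's strand, with the 2 arms of the match in capitals.
Syn1, GRCm38.p6 chrX:20920919-20921168, minus strand: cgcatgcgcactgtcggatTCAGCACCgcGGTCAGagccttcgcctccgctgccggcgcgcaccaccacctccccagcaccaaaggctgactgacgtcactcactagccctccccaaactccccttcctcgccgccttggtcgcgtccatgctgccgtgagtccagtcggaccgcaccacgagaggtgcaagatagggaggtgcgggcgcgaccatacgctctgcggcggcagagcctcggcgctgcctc

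A pair of readouts was available. The first was the normalized expression value that the authors deposited for each gene and library, compared on the log2(value + 0.005) scale, which understates the change of low genes. The second was the number of distinct read positions that fell on the exons of a single gene, counted from the deposited alignments, of which each library held 5608253 to 7359474. Values below 0.001 in 3 or more libraries were left out of the first, and genes with fewer than 10 positions in 3 or more libraries out of the second. Summed values per library ran from 2489.56 to 4358.6 and were higher in replicate 2 of both groups. Across genes, a library's values correlated better with the alignment file of its group's other library than with its own (for solvent replicate 1, Pearson's r across genes on the log2 scale of 0.945 against 0.913), so that the replicate numbers of values and positions may be crossed within a group. They are given as deposited. The block by replicate number, which compares MS-275 with solvent within each number, is the same either way.

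The question was which neuronal genes change in ESC within 24 h of class I deacetylase inhibition. In the values, 38 of the 42 genes entered the test, 21 had both MS-275 libraries above both solvent libraries, 4 had both below, and in 13 the groups overlapped. Over all genes tested, 32.3% did not overlap upward and 12% downward. Without the block, none of the 38 passed limma's moderated test with Benjamini-Hochberg adjustment, while an unadjusted p under 0.05 was reached by 15 that were higher and 1 that was lower (all genes, 14.6% and 2.77%). After adjustment, in this fit 0.00492% of 20336 genes were called higher and 0% lower. With the block, 17 genes rose and 2 fell, where 21% of all genes tested rose and 6.46% fell. The 21 and the 17 include Stmn4 and Scg2, which passed the filter only through MS-275 and so had to be higher. In exon positions without the block, 16 of 39 genes rose and 1 fell (all genes, 14.6% and 4.88%). With the block, 20 rose and 5 fell (all genes, 29.8% and 13.8%). The 20 include Stmn4, Chgb, Scg3 and Rab3c, whose direction was fixed by the filter on positions. Without MS-275 replicate 1, 9 genes rose in exon positions in the fit without the block, and the fall, that of Stmn3, became 2 falls without solvent replicate 2 and 0 without MS-275 replicate 2. By a plain rule with no test, 13 of the 41 genes with a value rose by 2-fold or more within each replicate number and none dropped as much, values under 0.001 being set to 0.001. Over all genes these shares were 11.5% and 2.04%.

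The split between rises and falls depended on the scaling of the libraries. The median gene of the whole table was 0.20 higher after MS-275 on the log2 scale, and -0.01 once libraries were scaled by median ratios. With the block, the 17 rises and 2 falls became 15 and 5 with this scaling (all genes, 16.6% and 14.1%) and 12 and 7 after quantile normalization (all genes, 14.4% and 14.6%), so that under both the share of falls was near that of all genes. When the filter on low values was dropped, no call was left among all 28250 genes, with or without the block. The loss of calls was therefore not particular to the 42 genes. Of 41 then tested by limma with the block, 13 rises and 3 falls had an unadjusted p under 0.05. No share over all genes is given for this fit, so that these counts cannot be read as particular to the 42 genes. The median change of the 38 genes was 0.68 (0.43 without solvent replicate 2 and 0.36 without MS-275 replicate 1), and 0.57 over the 36 that were not listed at 0 in both solvent libraries. In 34 of 37 genes the values and the exon positions had the same direction (Pearson's r = 0.86 across genes, which are not independent and share these libraries). Both readouts called 16 genes higher and 1, Stmn3, lower, with the block. The 34 and the 16 include Stmn4, Chgb, Scg3 and Rab3c. These passed the filter on positions only through their MS-275 libraries, so that their direction in that readout was fixed and their agreement says little.

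**Figure D1:**
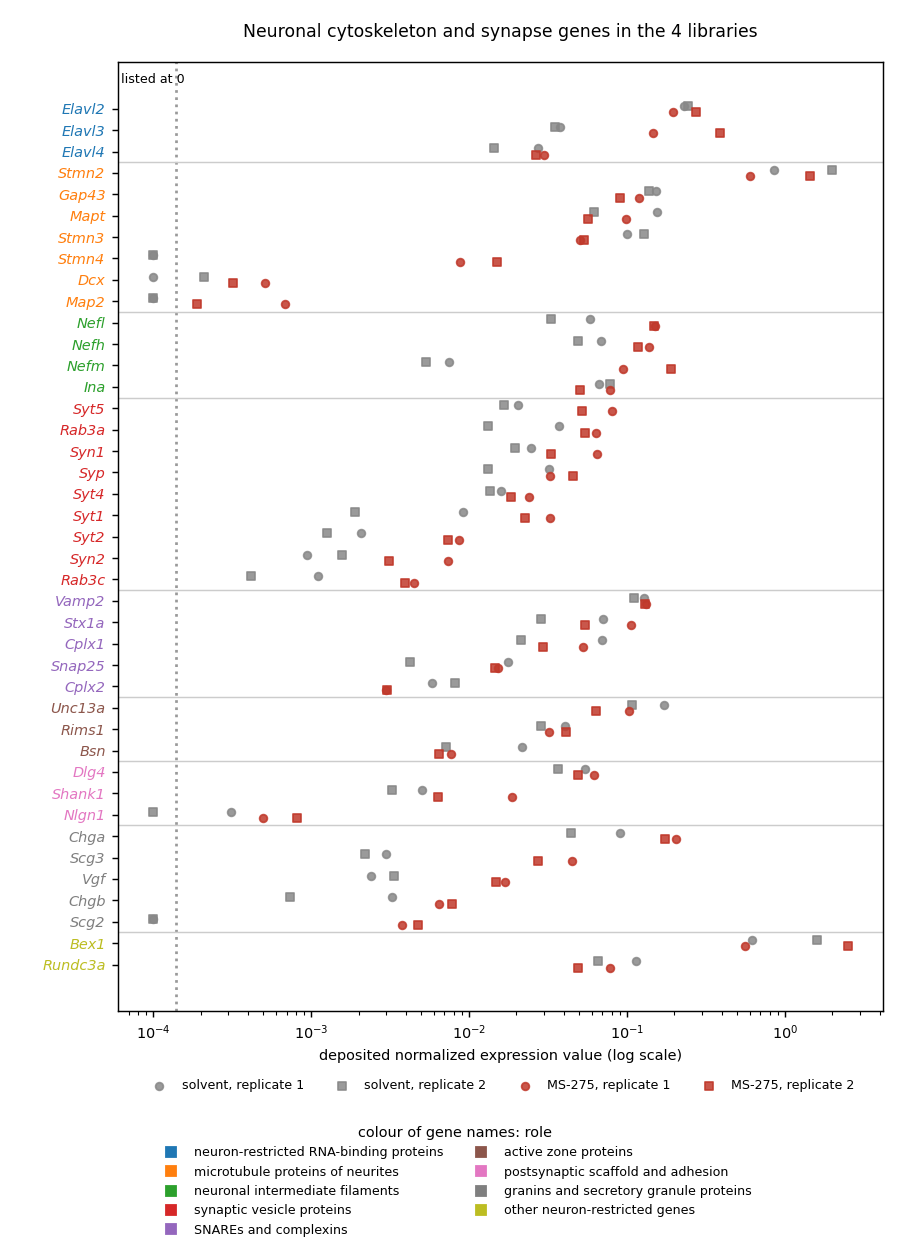
Deposited normalized expression value (log scale) of the 41 genes with a value in each of the 4 libraries, solvent in grey and MS-275 in red, circles for replicate 1 and squares for replicate 2, ordered by role and by mean. Points left of the dotted line are listed at 0. The granins lie to the right of solvent in every MS-275 library, while the 2 most abundant genes, Stmn2 and Bex1, differ more between replicates than between groups.

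Of the 5 genes of granins and other secretory granule proteins, 4 that were detected in solvent rose in the values with the block, and Scg2 was listed at 0 in solvent. Scg3, which codes for secretogranin III, a protein that binds chromogranin A to the granule membrane, stood at 0.00299 and 0.00221 in solvent and at 0.0449 and 0.0275 in MS-275. Its groups lay far apart, and its log2 fold change was 2.41 ± 0.56 (SE, n = 2 libraries a group; limma adjusted p = 0.074 without and 4.69e-05 with the block). Its exon positions went from 9 and 6 to 97 and 111. Chga, chromogranin A, the major soluble protein of dense-core granules, was the most abundant of them, with values of 0.0904 and 0.0445 in solvent and 0.204 and 0.175 in MS-275. Both treated libraries exceeded both controls. The log2 fold change of Chga was 1.5 ± 0.44 (SE; limma adjusted p = 0.118 without and 0.000335 with the block).

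Vgf, the precursor of several neuropeptides, rose from 0.0024 and 0.00334 to 0.0169 and 0.0149, a log2 fold change of 1.41 ± 0.43 (limma adjusted p = 0.131 without and 0.00166 with the block). The groups did not overlap, and its exon positions went from 18 and 6 to 61 and 47. Chgb, chromogranin B, was low in all libraries, at 0.00328 and 0.00074 against 0.00647 and 0.00783, and rose by 0.82 on the log2 scale (limma adjusted p = 0.029 with the block). Scg2, secretogranin II, was listed at 0 in both solvent libraries and at 0.00376 and 0.00478 in MS-275. Its exons held 0 and 0 positions in solvent and 18 and 9 in MS-275, at least 2.69-fold higher by a floor of 3 positions per library. Stmn4 and Scg2 passed the filter only through their MS-275 libraries and so had to be higher in them. In exon positions with the block, Chga and Vgf were called higher, as were Chgb and Scg3. Chgb, Scg3, Stmn4 and Rab3c passed the filter on positions only through their MS-275 libraries, so that their direction in this readout was fixed by it.

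The neurofilament subunits rose, and the related filament protein Ina did not pass the test. Nefm, the medium subunit, had the largest log2 fold change of the 36 genes tested in the values and detected in solvent, from 0.0075 and 0.00533 in solvent to 0.0947 and 0.192 in MS-275. Each treated library lay far above each control. The log2 fold change of Nefm was 3.62 ± 0.62 (SE; limma adjusted p = 0.0581 without and 2.68e-06 with the block), and its exon positions were 32 and 11 against 546 and 237. Nefm and Nefl overlap in the annotation on opposite strands, and the bases they share were not counted for either.

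Nefl, the light subunit on which the other neurofilament chains assemble, stood at 0.0585 and 0.0333 in solvent and 0.151 and 0.148 in MS-275. Its groups did not overlap, with a log2 fold change of 1.65 ± 0.45 (limma adjusted p = 0.0991 without and 0.000211 with the block). Nefh, the heavy subunit, rose from 0.0681 and 0.0487 to 0.138 and 0.118, a log2 fold change of 1.08 ± 0.43 (limma adjusted p = 0.227 without and 0.00315 with the block). Ina, alpha-internexin, which appears in young neurons, had 0.0664 and 0.0777 against 0.0786 and 0.0504, and its groups overlapped. Its log2 fold change was -0.18 ± 0.47 (limma adjusted p = 0.668 with the block), and exon positions gave -0.16.

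Of the 3 neuronal Hu proteins, which bind AU-rich messenger RNAs, Elavl3 alone passed the test with the block. Elavl3 had values of 0.0380 and 0.0353 in solvent and 0.146 and 0.390 in MS-275. The solvent libraries were close and the treated ones differed from each other, yet both were higher. Its log2 fold change was 2.55 ± 0.51 (SE; limma adjusted p = 0.0612 without and 2.14e-05 with the block), and its exon positions went from 235 and 98 to 1275 and 635. Elavl2, which germ cells also express, was the most abundant Hu gene in solvent and stood at 0.230 and 0.243 against 0.197 and 0.273. Its groups overlapped, with a log2 fold change of -0.02 ± 0.39, and exon positions gave 0.08. Elavl4 had a log2 fold change of 0.41 (limma adjusted p = 0.357 with the block).

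Among the microtubule proteins of neurites, Map2 rose in exon positions and Stmn3 fell in both readouts, with the block. Stmn4, a stathmin of the nervous system, was listed at 0 in both solvent libraries and at 0.00877 and 0.0150 in MS-275. Its exon positions were 0 and 0 against 36 and 12, at least 3.59-fold higher by the same floor. Stmn3, a close relative, fell from 0.100 and 0.127 to 0.0502 and 0.0536, and its groups did not overlap. Its log2 fold change was -1.05 ± 0.44 (SE; limma adjusted p = 0.249 without and 0.00445 with the block), and its exon positions dropped from 140 and 89 to 35 and 24. Stmn4 passed the filters of both readouts only through its MS-275 libraries. Its direction was therefore fixed, and its contrast with Stmn3 says little.

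Stmn2, known as SCG10 and found in growth cones, was the most abundant gene of this role. Its values were 0.856 and 1.99 in solvent and 0.6 and 1.45 in MS-275, lower after treatment within each replicate number, while the groups overlapped. The log2 fold change was -0.48 ± 0.90 (SE; limma adjusted p = 0.284 with the block). Its exon positions, 1293 and 1547 against 874 and 1128, fell by 0.44 on the log2 scale (limma-voom adjusted p = 0.0048 with the block and 0.097 without). Mapt, the axonal protein tau, had a log2 fold change of -0.37 in the values and -0.42 in exon positions, and only the latter passed (limma-voom adjusted p = 0.0283 with the block). Gap43, a protein of growing axons, had -0.45 and -0.42 and passed in neither readout.

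Map2, the dendritic microtubule protein, was listed at 0 and 0 in solvent and at 0.00068 and 0.00019 in MS-275, under the filter. In contrast, its exons held 507 and 459 positions in solvent and 1060 and 1383 in MS-275. Positions were plentiful in all 4 libraries, and both treated libraries exceeded both controls. The log2 fold change of its exon positions was 1.40 ± 0.13 (SE with the block; limma-voom adjusted p = 1.05e-08 with and 0.00637 without the block). Of 3245 genes below 0.001 in all libraries and matched by symbol, 6 had at least 100 exon positions over the 4 libraries. Dcx, doublecortin of migrating neurons, was below the filter in both readouts, with 0 to 3 exon positions per library.

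The 9 genes of synaptic vesicle proteins had positive log2 fold changes throughout, between 0.40 and 1.70, and 6 of them rose with the block. Syt1, the calcium sensor of fast release, stood at 0.00915 and 0.00191 in solvent and 0.0324 and 0.0227 in MS-275. The groups were apart although the solvent libraries differed, with a log2 fold change of 1.70 ± 0.61 (SE; limma adjusted p = 0.183 without and 0.000849 with the block). Its exon positions were 12 and 34 against 114 and 172. Syt5 rose from 0.0204 and 0.0166 to 0.0806 and 0.0517, a log2 fold change of 1.57 ± 0.59 (limma adjusted p = 0.205 without and 0.000907 with the block), and its groups did not overlap.

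Rab3a, a small GTPase on synaptic vesicles, had 0.0370 and 0.0132 in solvent and 0.0633 and 0.0542 in MS-275. Its log2 fold change was 1.20 ± 0.63 (limma adjusted p = 0.386 without and 0.00932 with the block), with no overlap of the groups. Syt2 rose by 0.97, Syn1 by 0.93 and Rab3c by 0.68 on the log2 scale with the block. Syn2 (0.68), Syp (0.74), which codes for synaptophysin, and Syt4 (0.40) did not pass in the values. Exon positions called Syn2 higher as well, with 10 and 4 positions in solvent and 29 and 29 in MS-275.

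The SNAREs and complexins, which carry out and clamp membrane fusion, held no gene called by limma in the values, with or without the block, nor at an unadjusted p under 0.05 without it. Vamp2, the vesicle SNARE synaptobrevin, was the most abundant and stood at 0.128 and 0.111 in solvent and 0.133 and 0.130 in MS-275. Both treated libraries were above both controls by a small margin, with a log2 fold change of 0.14 ± 0.37, which turned to -0.14 with median-ratio scaling. Stx1a, syntaxin 1A of the plasma membrane, had 126 and 127 exon positions in solvent and 195 and 255 in MS-275 and rose in this readout (log2 fold change 0.89; limma-voom adjusted p = 0.037 without and 0.000804 with the block), against 0.68 in the values. Snap25 had 0.47 in the values and 0.77 in exon positions, the latter just past the test with the block (limma-voom adjusted p = 0.04997). Cplx2 fell by exon positions with the block alone, from 86 and 28 to 23 and 16 (limma-voom adjusted p = 0.00397 with and 0.204 without it). Its solvent libraries differed widely in this readout, and it had -0.57 in the values. Cplx1 had 0.01 in the values and 0.05 in exon positions.

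At the active zone and the postsynapse few genes moved. Unc13a, which primes vesicles for fusion, stood at 0.171 and 0.108 in solvent and 0.103 and 0.0641 in MS-275. Its groups just failed to overlap, and the log2 fold change was -0.70 ± 0.44 (limma adjusted p = 0.491 without and 0.03 with the block). Its exon positions, 130 and 105 against 127 and 118, gave 0.15 and did not pass, so that the fall was seen in the values alone, where it missed the threshold without the trend (limma adjusted p = 0.053 with the block). Bsn, the scaffold bassoon, had -0.58 and 0.03 in the 2 readouts, and Rims1, a vesicle-docking protein, 0.08 and 0.25.

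Shank1, a scaffold of excitatory synapses, rose from 0.00504 and 0.00325 to 0.0187 and 0.00637, with a log2 fold change of 0.85 ± 0.48 (limma adjusted p = 0.432 without and 0.0402 with the block). Its MS-275 replicate 2 was close to the controls in the values. There its call with the block was lost with median-ratio scaling (limma adjusted p = 0.0674), after quantile normalization (0.44) and with a pseudocount of 0.001 (0.0631). Exon positions of Shank1 were 52 and 31 in solvent and 85 and 82 in MS-275, a log2 fold change of 1.11. This rise passed with the block alone (limma-voom adjusted p = 0.0025 with and 0.0843 without it). Dlg4, the scaffold PSD-95, had 0.0543 and 0.0368 against 0.0619 and 0.0494, a log2 fold change of 0.28 with overlapping groups. Nlgn1, a postsynaptic adhesion protein, was below the filter with 0 to 5 exon positions per library. Of the remaining genes, Bex1, a small adaptor protein, was abundant and varied by replicate, at 0.619 and 1.61 in solvent and 0.557 and 2.51 in MS-275. Its log2 fold change of 0.25 turned to -0.04 with median-ratio scaling. Rundc3a fell in exon positions (-0.57; limma-voom adjusted p = 0.0185 with the block) and had -0.45 in the values. Celsr3, a cadherin needed for axon tracts, had 218 and 135 exon positions in solvent and 101 and 128 in MS-275 (log2 fold change -0.53; limma-voom adjusted p = 0.0538 with the block).

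**Figure D2:**
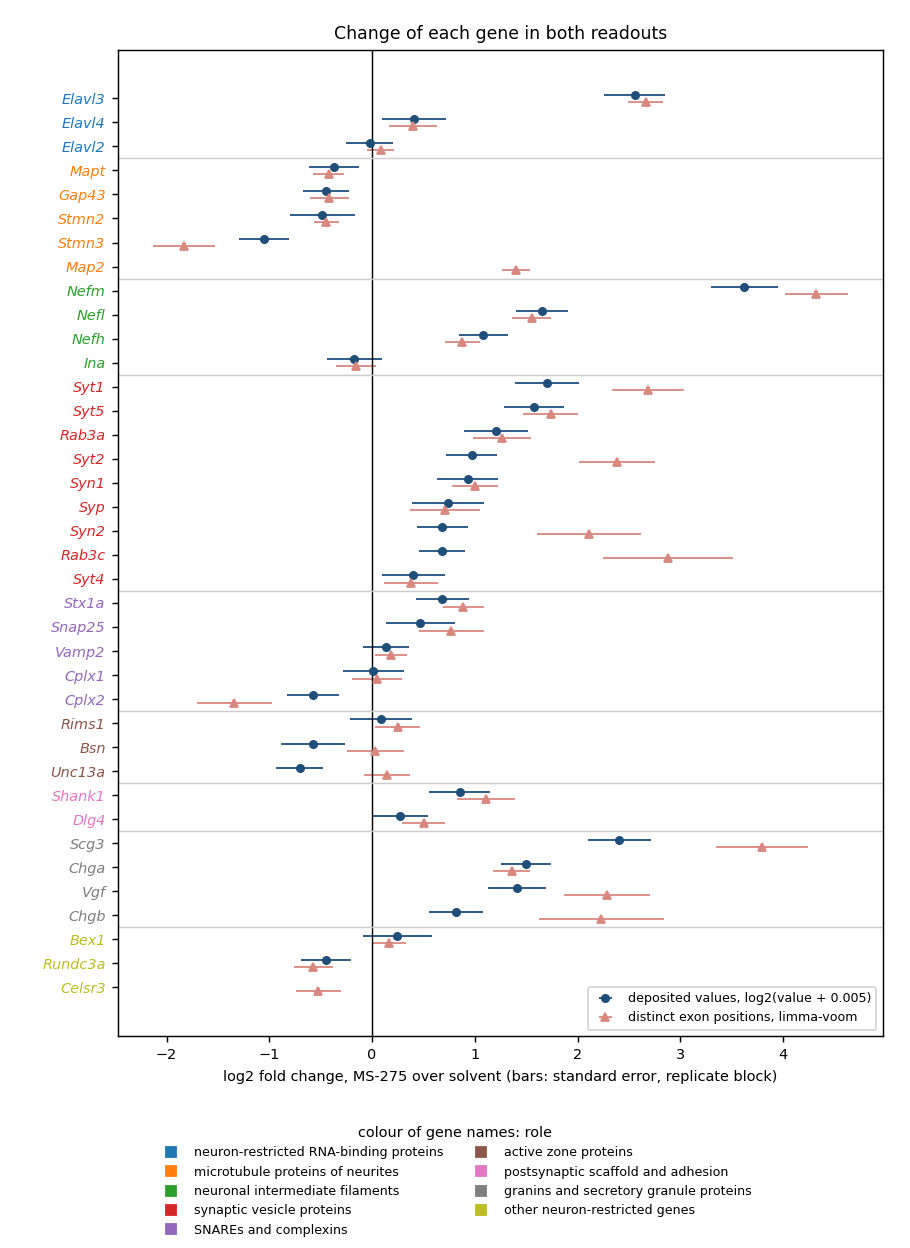
Log2 fold change of MS-275 over solvent for each gene, in the deposited values (blue circles) and in exon positions (pink triangles), with the standard error of the fit with the block. Stmn4 and Scg2 carry no point because both solvent libraries were at 0. The other granins and the vesicle proteins lie right of 0 in both readouts, and Stmn3 lies left of it in both. The exon points of Chgb, Scg3 and Rab3c had to lie right of 0, because these genes passed the filter on positions only through MS-275.

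Introns report on RNA that has not yet been spliced, and also hold reads from genomic DNA or overlapping transcripts. The introns of 30 of the 42 genes had enough positions to test. With the block, 14 rose and 2 fell, where 28.9% of 13790 genes rose and 13.6% fell. Syn2, Syt2, Syt5 and Scg3 passed this filter only through their MS-275 libraries. The intron positions of Elavl3 went from 140 and 34 to 1261 and 491, a log2 fold change of 3.60 (limma-voom adjusted p = 1.49e-48 with the block). Those of Rab3c went from 14 and 8 to 197 and 113, and those of Syt1 from 30 and 13 to 173 and 133. The introns of Rims1 (log2 fold change 1.35) and Dlg4 (1.02) rose while their exons did not pass. The introns of Stmn2 fell from 382 and 817 to 114 and 400 (log2 fold change -1.22; limma-voom adjusted p = 9.88e-09 with the block). Of the 29 genes tested in both, 22 had a higher log2 fold change in introns than in exons, and 12 of the 14 genes that rose in exons also rose in introns. Over all genes tested the median change was also higher in introns (0.21) than in exons (0.14), and no like counts over all genes are given here. The 22 and the 12 can therefore not be read as particular to the 42 genes. The 12 include Syn2, Syt2, Syt5 and Scg3, whose direction in introns was fixed by the filter. Beside this, positions between genes, per kb and 1000000 positions, were 0.0515 to 0.0543 in solvent and 0.0570 to 0.0758 in MS-275, whose part in the intron counts was not tested.

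**Figure D3:**
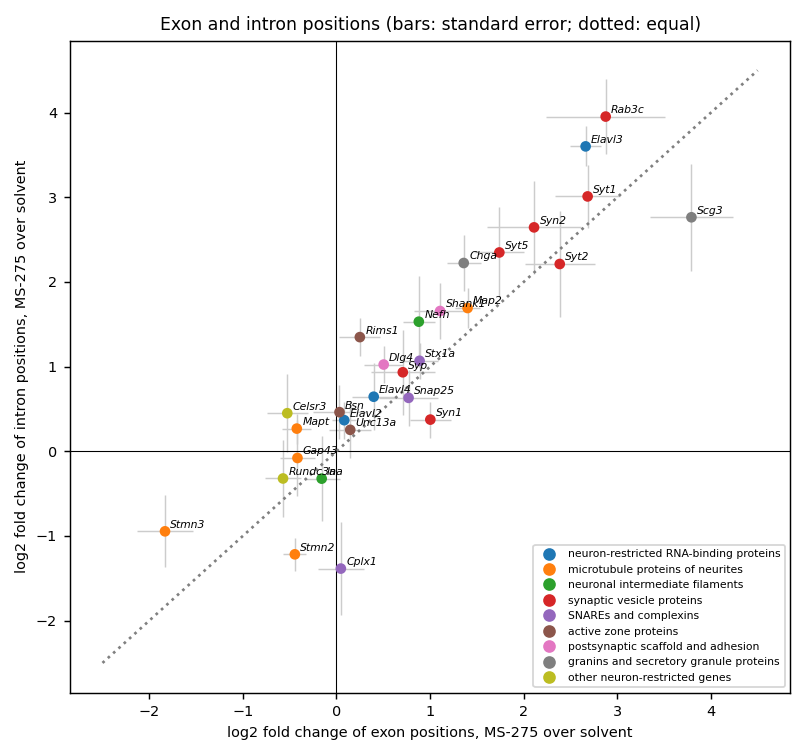
Log2 fold change of intron positions against that of exon positions for the 29 genes tested in both, with standard errors of the fits with the block and a dotted line of equal change. Elavl3, Rab3c, Syt1 and Syn2 lie at the upper right, Stmn2 and Stmn3 at the lower left, and 22 genes lie above the line. The direction of Rab3c in exons and that of Syn2 in introns were fixed by the filters.

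The level before treatment was compared per length of exon, as positions per kb and per 1000000 exon positions of the library. In solvent, Stmn2 (110.7 ± 17.6, SD, n = 2) and Bex1 (66.3 ± 0.66) stood above the other 40 genes and at percentiles 99.85 and 97.95 of 22265 protein-coding genes. They were followed by Elavl2 (23.2 ± 3.65) and Gap43 (22.1 ± 2.02), which did not differ beyond their spread. Nefm (0.674 ± 0.448) ranked at place 31 and Scg3 (0.492 ± 0.124) at place 33. After MS-275 the order changed: Chga (34.3 ± 4.81), Elavl3 (31.2 ± 19.8) and Nefl (24.9 ± 4.28) held places 3 to 5, with spreads that overlap, Nefm (13.9 ± 9.86) held place 10, and Stmn3 went from place 6 to place 22. In a bulk sample, more cells that express a gene and more RNA per cell cannot be told apart.

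**Figure D4:**
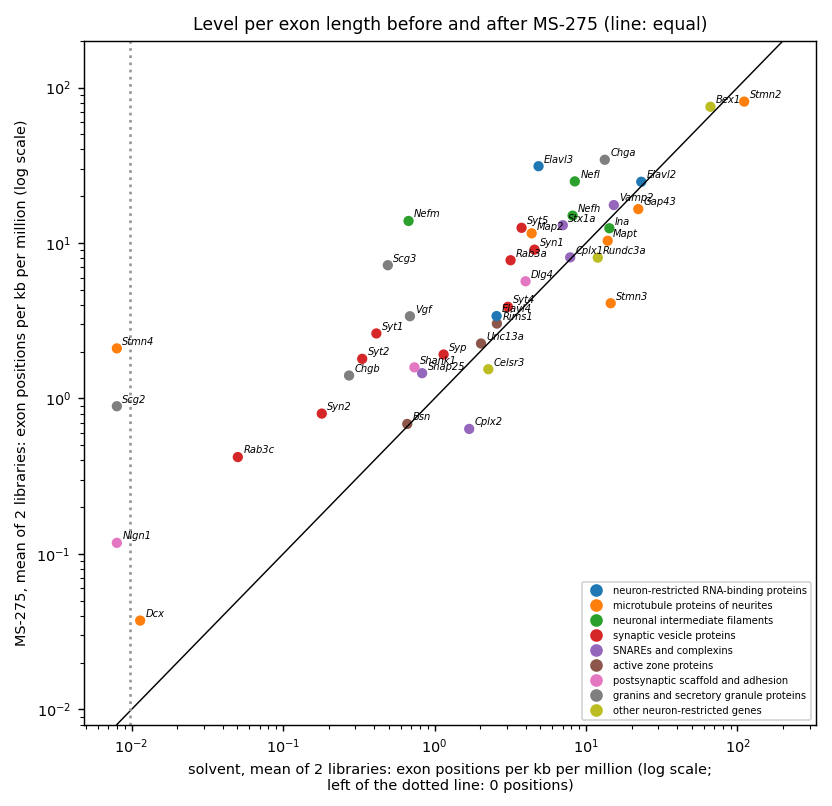
Mean exon positions per kb, scaled to 1000000 exon positions, in solvent and in MS-275 (2 libraries each, both axes log scale) for the 42 genes, coloured by role, with a line of equal level. Genes at 0 in solvent are drawn left of the dotted line; Nefm, Scg3 and Elavl3 lie well above the line, Stmn2 and Bex1 near it at the top, and Stmn3 and Cplx2 below it.

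Genes with an RE1-like match rose and fell. Of the 14 genes with at most 1 mismatch, 13 entered the test of the values and 7 of these rose, none fell and 6 were not called, with the block. Of the 28 genes without such a match, 25 were tested, 10 rose, 2 fell and 13 were not called. The 10 include Stmn4 and Scg2, whose direction was fixed by the filter on values. Over all genes tested, 21% rose and 6.46% fell. With no mismatch allowed, 3 of 7 genes with a match rose and 0 fell, against 14 rises and 2 falls of 31 without. With up to 2 mismatches, 10 of 18 rose and 1 fell, against 7 rises and 1 fall of 20. Stmn4 and Scg2 are among the 14, and at up to 2 mismatches Stmn4 is among the 10 and Scg2 among the 7. For at most 1 mismatch, in exon positions with the block, 8 rose and 2 fell of the 14, and 12 rose and 3 fell of 25 tested without a match (all genes, 29.8% and 13.8%). The 8 include Chgb, and the 12 include Stmn4, Scg3 and Rab3c, whose direction was fixed by the filter on positions. Without the block neither of the 2 falls at genes with a match passed (limma-voom adjusted p = 0.097 for Stmn2 and 0.117 for Rundc3a). Scg3, Syt1, Nefl and Syt5, which rose, held no match in the window, and Stmn2, which holds a match without mismatch at -1289 bases from its start, did not rise. Rest itself was lower in MS-275, with values of 0.505 and 0.926 in solvent and 0.267 and 0.312 (log2 fold change -1.23; limma adjusted p = 0.24 without and 0.00213 with the block). A match is a description of letters and does not show that REST binds there.

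**Figure D5:**
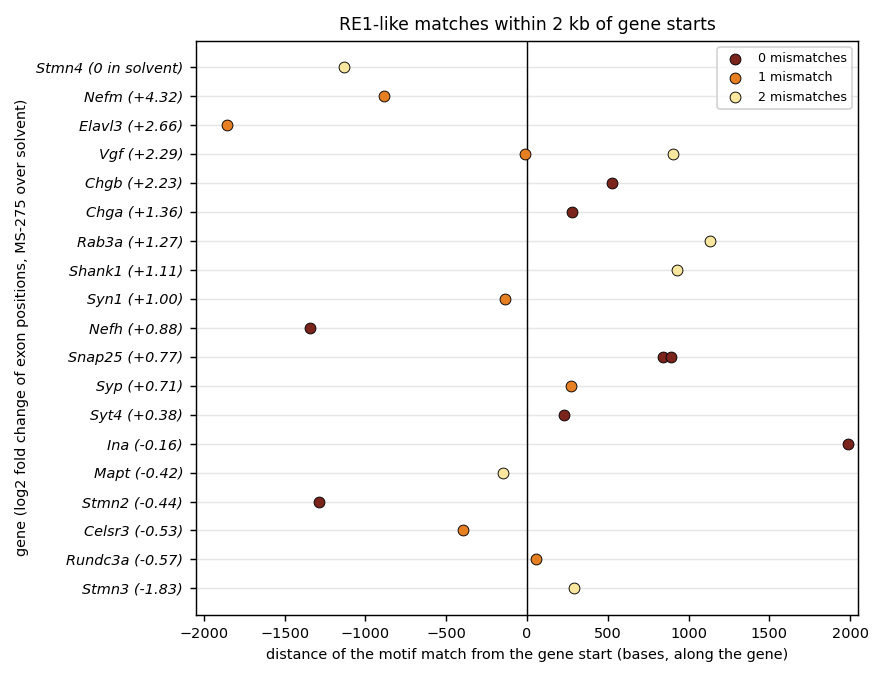
Distance of each RE1-like match from the gene start (bases along the gene) for the 19 genes with a match of up to 2 mismatches, ordered by the log2 fold change of their exon positions, which is given in brackets. Matches without mismatch (dark) lie at genes that rose, such as Chga, and at Stmn2, which fell in this readout with the block alone. They also lie at Ina and Syt4, which did not pass, and at Chgb. The direction of Chgb was fixed, because it passed the filter on positions only through MS-275.

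Other neuronal genes were listed apart from the 42, and 21% of all genes rose and 6.46% fell in the fit they are counted in. Of 62 other neuronal and synaptic genes tested, 28 rose and 2 fell with the block, with a median log2 fold change of 0.70 in the values. The largest rises were those of Rab3b (2.82), a relative of Rab3a, and Sncb (2.36), beta-synuclein, and the largest falls those of Pcsk1 (-1.43), a prohormone convertase that processes granule peptides, and Syt9 (-1.02). Of 30 voltage-gated sodium and calcium channel genes tested, 8 (26.7%, near the share of all genes) rose in the values and none fell, led by Cacna1s (2.15) and Cacna1g (1.95). Cacnb1 (-0.53) and Scn2b (-0.41) had the lowest changes and did not pass. In exon positions with the block, 14 of 28 channel genes rose and 1 fell (all genes, 29.8% and 13.8%). Of 31 receptor genes for glutamate, GABA and glycine, 11 rose and 3 fell, with Gabrg1 (1.83) and Gabra4 (1.77) at the top and Grik3 (-1.44) and Gria3 (-0.93) at the bottom.

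Widely expressed relatives of the 42 genes, such as Snap23 and Stmn1, served as a contrast of like function outside neurons. Of 27 tested, 3 rose and 1 fell with the block, with a median log2 fold change of 0.15. The median was 0.68 for the 38 of the 42 genes that were tested and 0.20 for all genes. Without Stmn4 and Scg2, which passed the filter only through MS-275, the median of the remaining 36 was 0.57. Snap29 (0.91) and Stxbp3a (0.79) were the highest, and Stx3 (-1.71) and Lmnb1 (-0.64) the lowest. Among 8 proteins that act at RE1, Rest and Rcor3 (-0.95) fell and Hdac1 (0.75) rose with the block, although Hdac1 differed widely between the solvent libraries (0.0311 and 0.165), and Hdac2 (0.32) did not pass.

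Markers of other cells moved as well, counted here in the values with the block, where 21% of all genes rose and 6.46% fell. The stem cell markers were present throughout, with summed values of 5.21 and 17.3 in solvent and 4.26 and 9.42 in MS-275, and 3 of 8 fell with the block. Pou5f1 stood at 0.727 and 2.33 against 0.575 and 0.786, and Sox2 and Nanog did not pass. In exon positions with the block, 4 of these 8 fell and none rose (all genes, 13.8% and 29.8%). In introns with the block, all 6 that were tested fell (all genes, 13.6%). Of 10 markers of feeder fibroblasts, 6 rose and none fell in the values, led by Col1a1 (2.41) and Pdgfrb (1.20). Dcn (-0.72) and Col3a1 (-0.52) were the lowest. The summed values of these markers were 0.372 and 0.516 in solvent and 0.660 and 0.906 in MS-275. In exon positions with the block, 6 of 10 rose and 1 fell (all genes, 29.8% and 13.8%). Of 10 astrocyte and oligodendrocyte markers, 5 rose and none fell in the values, led by Mbp (2.02) and Olig1 (1.56), while Mog (-0.49) did not pass. The sums were 0.120 and 0.0510 in solvent against 0.189 and 0.135 in MS-275. In exon positions with the block, 5 of 7 tested rose and 1 fell. Of 7 neuroendocrine and chromaffin markers tested, Calca (1.24) rose and Ddc (-2.20) fell. Their sums were 0.570 and 0.420 against 0.499 and 0.703, and Slc18a2 (0.29) and Slc18a1 (-0.47) did not pass. No marker of the 4 lists was at 0 in all 4 libraries. The part of these cells in the changes of the 42 genes was not tested.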

How the data were processed

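RNA was measured in 4 libraries of TBV2 cells, 2 with solvent and 2 with 5 µM MS-275 for 24 h, grouped by title. The authors sequenced poly(A) RNA as short single reads, mapped them to mm9 and deposited a normalized expression signal per gene. Its formula and the aligner are not given in the sources used here. The authors also deposited alignments, 9785619 to 23467935 per library, of which 53.2% and 54.4% were repeats in the replicate 1 files and 0 in the others. Distinct positions (9122347 to 10973569) were therefore counted on exons and introns of GENCODE M1, each read at base 17 from its start. Deposited tables of ratios and shortened tables hold the authors' own comparisons or selections and were not used.

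Values were compared with limma 3.58.1 in R 4.3.3 (lmFit, eBayes with a trend) on log2(value + 0.005), for 20336 genes with at least 0.001 in 2 libraries, and positions with limma-voom. Benjamini-Hochberg adjustment covered all genes tested, at a threshold of 0.05. Fits with the replicate number as a block are given beside those without. Headers of the shortened tables mark replicate 1 of both groups as old, alignment names mark replicate 2, and the deviations of same-numbered libraries correlated (0.764 for values, 0.615 for positions). The scripts were tested on simulated data. Figures used Python 3.11.15 and matplotlib 3.10.9.

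The genes and lists were chosen with earlier results of these data known. Per role, genes that passed with or without the block (up to the 3 largest rises and 2 largest falls) and the most abundant gene are given by library. Of other lists, the 2 highest and 2 lowest are named, except 1 gene that is not reported here. Genes named beyond this were chosen after their values were seen. Map2 is listed as Mtap2 and was matched by its gene identifier. A planned comparison of protein sequences was not run. Depth limits the precision of low genes, and floors cover counting error only.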

Additional observations from a re-analysis of the deposited data

Results flagged for a closer look

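Map2 was picked out because a signal appeared in the alignments where the deposited values held almost none. Its exon positions, scaled to 1000000 per library, were 71.5 in solvent and 188.46 in MS-275 (means of 2 libraries), whereas its listed values did not exceed 0.00068. No other of the 42 genes below the filter on values passed that on positions.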

How the results depend on the processing

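The counts of genes called in the values depended on the replicate block. Without the block none of the 42 genes was called higher or lower; with the replicate block 17 were higher and 2 lower. With the block and another choice changed, the counts higher and lower were 12 and 7 after quantile normalization, 15 and 5 with median-ratio scaling, 16 and 2 with a pseudocount of 0.001, 16 and 2 with 0.02, 16 and 1 without the trend, and 10 and 2 for genes whose mean was 0.01 or more. Without the block, 3 were higher when a mean of 0.01 was required, and leaving out 1 library gave 1 to 2 higher and 0 lower. Distinct exon positions called 16 higher and 1 lower without the block and 20 and 5 with it. Leaving out 1 library changed these 16 and 1 to between 9 and 13 higher and between 0 and 2 lower. The median log2 fold change was 0.68 and became 0.25 with a pseudocount of 0.02, 0.47 without a filter, 0.40 with a mean of 0.01 required, 0.29 after quantile normalization and 0.47 with median-ratio scaling, in fits with or without the block, and 0.36 to 0.83 with 1 library left out. The number at least 2-fold higher in both pairs fell from 13 to 8 with a floor of 0.01, and was 16 to 17 in a single pair. The number lower rose from 0 to 3 at 1.5-fold, to 2 with median-ratio scaling and to 1 to 2 in a single pair. Matches to RE1 near gene starts numbered 7 with 0 mismatches, 14 with up to 1 and 19 with up to 2.

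Over the 19 genes given by library and up to 21 settings each, 250 of 391 values kept direction and side of the threshold of the fit without the block, in which none was called, 127 passed it in the same direction, and 14 changed sign. Of the 14 of these genes called with the block, 13 were still called with the block and median-ratio scaling, quantile normalization or a pseudocount of 0.001 (Shank1 lost each time), 13 without the trend or in exon positions (Unc13a lost), 14 with a pseudocount of 0.02, 11 of 11 with a mean of 0.01 required, and 0 without a filter. Without a filter no gene of the whole table was called. The sign changed for Vamp2 (-0.14 with median-ratio scaling, with or without the block), for Bex1 (-0.042 with the same scaling, and -0.84 to 1.33 with 1 library left out), for Elavl2 (-0.26 to 0.21 with 1 library left out, 0.053 and 0.083 in exon positions without and with the block), for Stmn2 (-1.12 to 0.15 with 1 library left out) and for Unc13a (0.12 and 0.15 in exon positions). The causes were not tested. With 1 library left out, the remaining library of its group was assumed to vary like the other group. The protein comparison was not run.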
